A study of Populus tremula x Populus alba with 3 samples.

Results

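The 2 genes described here belong to the dormancy/auxin associated family, whose best known member is DRM1. They were taken by identifier from the 41335 gene rows of the count table. Potri.004G047100 matches the Arabidopsis locus AT1G28330, with the symbols DRM1 and DYL1 and the description dormancy-associated protein-like 1. Potri.013G014900 matches AT1G56220, with no symbol, and is described as a dormancy/auxin associated family protein. These matches come from the authors' deposited table, in which no other gene carries a family name. Other poplar genes of the family were not analysed here. The symbol DRM1 is also used in Arabidopsis for a DNA methyltransferase, which is a different gene.

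DRM1 was first described in pea, where its transcript is abundant in dormant axillary buds and declines when the buds resume growth. Related genes in other plants are known as auxin-repressed genes, and their transcripts accumulate in darkness and sugar starvation. They encode small plant-specific proteins whose biochemical function is not settled, and they are widely used as markers of bud dormancy.

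The material was the topmost bud of a Populus tremula x Populus alba hybrid, INRA clone 717-1B4, which is commonly used for transformation. The 3 libraries are wild type (1 library) and the RNA interference lines KD2 and KD5 (1 library each, 2 in the RNAi group). The construct in both lines targets PtaDML10, of the DEMETER-like enzymes, which take methylated cytosine out of DNA. All plants of the 3 genotypes shared 1 regime: 4 weeks of long days (16 h of light, 21 °C), 12 weeks of short days (8 h, 19 °C), 4 weeks at 4 °C and a return to long days. Buds were picked before visible opening, 15 from 15 plants of each genotype, and whether they were pooled is not given in the labels. The promoter of the construct is not given in the sources used here, and each line counts as 1 independent sample.

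Libraries held between 4509887 and 6829583 counts, with the largest total in wild type. The locus that published naming gives for PtaDML10, Potri.010G234400, had 59 counts in wild type, 63 in the library labelled KD2 and 83 in the library labelled KD5. Scaled to CPM, counts relative to library size, these are 9.59, 13.2 and 17.01. The knockdown was thus not seen at this locus, where the fitted log2 fold change was 0.66 (SE 0.31, adjusted p = 0.15 by edgeR's quasi-likelihood test). Every direction below is therefore that of the libraries so labelled. Matches of SHOOT MERISTEMLESS, which maintains the shoot meristem, were present in every library, the more abundant one at 149.3, 67.2 and 89.2 CPM in wild type, KD2 and KD5.

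The first question was how abundant the 2 transcripts were in these buds. The DRM1 match was among the most abundant of all genes. Wild type had 21023 counts of it, and the libraries labelled KD2 and KD5 had 7020 and 7213. By counts its rank was 5 in wild type and 16 and 17 in KD2 and KD5, out of 28819, 28656 and 28868 genes with at least 1 count. It took 0.308% of all counts in wild type, or 1 count in every 325, and 0.156% and 0.154% in KD2 and KD5.

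For Potri.013G014900 there were 5154 counts in wild type, against 2387 (KD2) and 2292 (KD5). It ranked 106, 137 and 165, and took 0.0755%, 0.0529% and 0.0488% of the counts. Both genes thus stood lower in the order of both RNAi-labelled libraries than in that of wild type. A rank by counts is not divided by transcript length, so a long gene can stand higher than a short one at the same number of molecules. A rank within a library does not depend on how libraries are scaled to each other.

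**Figure D1:**
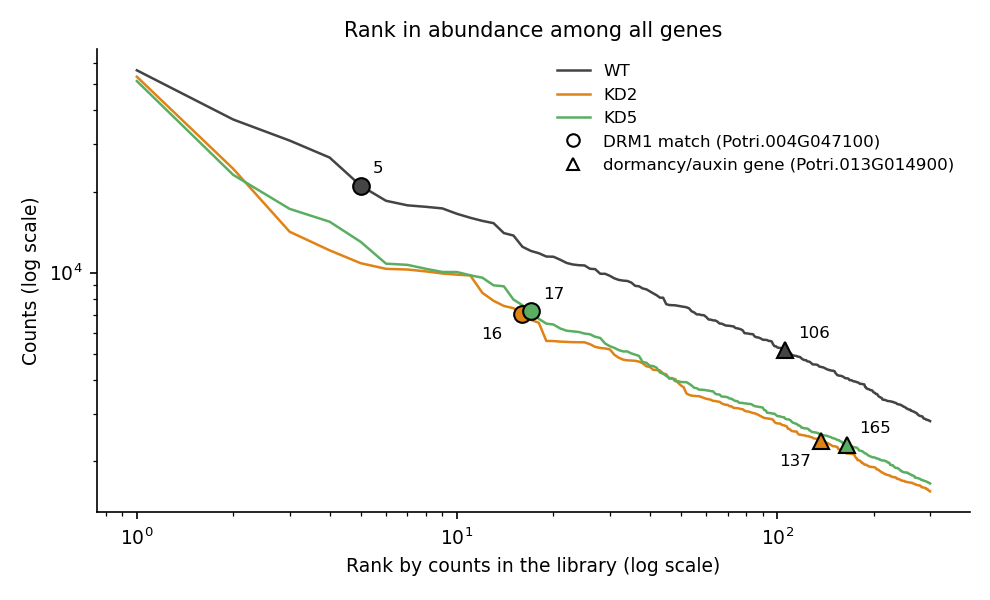
Counts (log scale) of the 300 most abundant genes of each library against their rank (log scale), with the DRM1 match as circles and Potri.013G014900 as triangles, coloured by library and labelled with the rank. The DRM1 match moves from rank 5 in wild type to 16 and 17 in the RNAi-labelled libraries, and Potri.013G014900 from 106 to 137 and 165.

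The steps around the DRM1 match were wide enough in wild type to place it apart from its neighbours by counting error. The gene directly above it, Potri.013G101000, had 26730 counts and the one directly below, Potri.009G085100, had 18481, while the exact 95% Poisson interval of the DRM1 match ran from 20740 to 21310. In the RNAi-labelled libraries the gene directly above was Potri.013G100700, with 7389 counts in KD2 and 7580 in KD5. The gene directly below was the ribosomal protein L19e match Potri.004G078000 in KD2 (6690 counts) and Potri.001G466000 in KD5 (6745 counts). These values lay outside the intervals of the DRM1 match, from 6857 to 7186 counts in KD2 and from 7047 to 7381 in KD5. Intervals cover counting error only, since wild type has no replicate.

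Around Potri.013G014900 the order was much denser and its exact places were not resolved. Its wild type neighbours, Potri.009G018600 and Potri.016G015500, had 5161 and 5109 counts, inside its interval from 5014 to 5297. In KD2 the neighbours were Potri.001G222200 with 2414 and Potri.006G141400 with 2385 counts, and in KD5 the ribosomal protein L18 match Potri.005G023500 with 2302 and Potri.010G203500 with 2285. None of these could be told apart from Potri.013G014900 by counting error.

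The genes that passed the members in rank were counted as a description of the reordering. Below the DRM1 match in wild type and above it in both RNAi-labelled libraries were 11 genes. Of these, 5 were themselves called lower, 5 were not called and 1 was called higher. In the opposite sense, 0 genes moved from above the DRM1 match to below it in both. For Potri.013G014900, 40 genes moved from below to above and 4 from above to below. Among the 40, 6 were called lower, 1 was called higher and 33 were not called. At abundances like those of the DRM1 match and Potri.013G014900, 60.5% and 52.2% of tested genes were called lower. A gene passes a member by falling less than it or by rising, so the moves upward included genes called lower and describe the order alone.

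The main comparison gave the size of the difference in level of the 2 transcripts between the RNAi-labelled libraries and wild type. Both genes were named from the authors' deposited table, which lists only genes with an FDR of at most 0.0499 on these same libraries. Their calls are therefore not independent evidence, and say nothing of family members outside that table. Wild type held 3418 CPM of the DRM1 match, against 1474 CPM (KD2) and 1478 CPM (KD5), where CPM is scaled by library size and TMM factor. Both RNAi-labelled libraries lay below wild type and almost at the same level as each other. Their mean of 1476 ± 3.15 CPM (SD, n = 2) was 43.2% of the wild type value. The log2 fold change was -1.21 (SE 0.13, edgeR quasi-likelihood test, adjusted p = 6.7e-18), and the gene ranked 23 among the 23089 tested genes by p. Of the tested genes, 13.1% were called at an adjusted p below 0.05, 8.05% as lower and 5% as higher.

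For Potri.013G014900 the wild type level was 838 CPM, and the levels in KD2 and KD5 were 501 and 470 CPM. The RNAi-labelled libraries again lay below wild type, at 485 ± 22.2 CPM (SD, n = 2), or 57.9% of its value. The log2 fold change was -0.79 (SE 0.15, adjusted p = 6.8e-06). It ranked 400 by p. Both members passed the filter on low counts and both were called lower. Loess normalization on abundance, which scales each library by a factor that varies with abundance and called 3.36% of genes lower and 2.07% higher, reduced the changes to -0.49 (SE 0.14, adjusted p = 0.053) for the DRM1 match and -0.28 (SE 0.15, adjusted p = 0.29) for Potri.013G014900, and neither was then called.

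**Figure D2:**
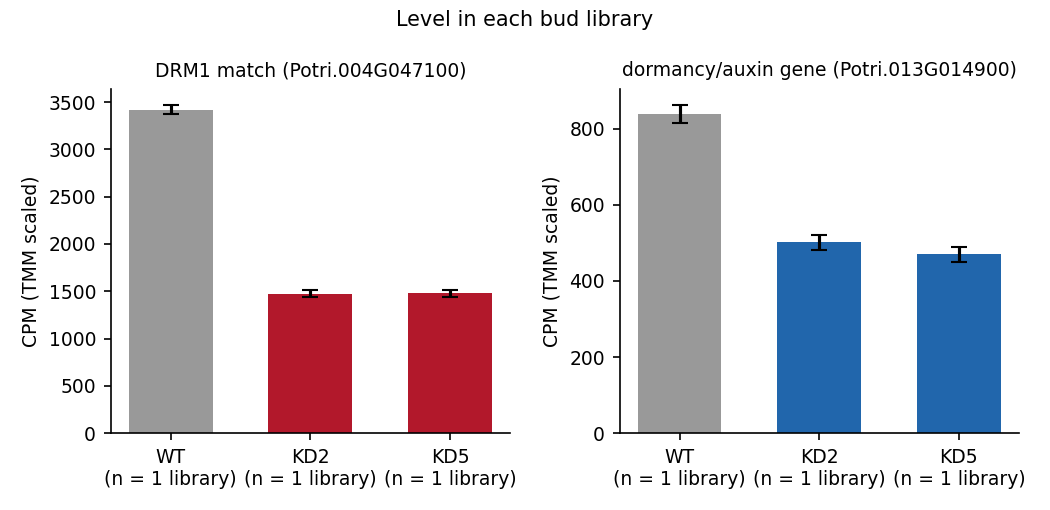
Level in CPM (TMM scaled, axis from 0) of each gene in each library, 1 bar per library, with exact 95% Poisson intervals that cover counting error only. In both panels the libraries labelled KD2 and KD5 lie below wild type, at 1474 and 1478 against 3418 CPM for the DRM1 match and at 501 and 470 against 838 CPM for Potri.013G014900.

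The test takes its spread from the RNAi-labelled libraries alone and assumes that the single wild type library varies like them. That spread is a trend fitted over all tested genes, not each member's own. The trended dispersion at the abundance of the members gave a coefficient of variation of 10.3% for the DRM1 match and 10.2% for Potri.013G014900. Dispersion here is the variation between libraries beyond counting error, fitted against abundance. It is not the quasi-likelihood spread from which the SE and p-values above come. In bulk buds, fewer cells that express a gene and less RNA per cell cannot be told apart. Reads from the P. tremula and P. alba copies of each gene are counted together.

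The authors' deposited table lists both genes among its 2151 entries, of which 1387 are lower and 764 higher in the KD lines. In the authors' deposited table the DRM1 match has a log2 fold change of -1.23 with an FDR of 2e-07, and it is entry 4 by average abundance (11.05 log2 CPM). In the authors' deposited table Potri.013G014900 has a log2 fold change of -0.80 with an FDR of 0.0032 and is entry 55 by abundance (9.23 log2 CPM). By p-value the genes are entries 100 and 789 of that table. Its values and those above come from the same 3 libraries.

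The 2 RNAi-labelled libraries were then compared with each other. For the DRM1 match the ratio of KD2 to KD5 was 0.997, with a counting interval from 0.965 to 1.03, so no difference between them was detectable. Potri.013G014900 was slightly higher in KD2, at a ratio of 1.07 with an interval from 1.01 to 1.13. Relative to wild type, the DRM1 match was at 0.431 of its level in KD2 (interval 0.42 to 0.443) and 0.432 in KD5 (0.421 to 0.444). Potri.013G014900 was at 0.598 (0.57 to 0.628) in KD2 and 0.561 (0.533 to 0.589) in KD5. The gap between wild type and either RNAi-labelled library was thus wider than the gap between KD2 and KD5 for both genes.

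The DRM1 match fell further than Potri.013G014900 in both RNAi-labelled libraries. There were 4.08 counts of the DRM1 match per count of Potri.013G014900 in wild type (interval 3.96 to 4.21), 2.94 in KD2 (2.81 to 3.08) and 3.15 in KD5 (3.002 to 3.3). This ratio is not per length and so gives no ratio of molecules, but its change between libraries does not depend on length or on any scaling that applies 1 factor to a whole library. Loess normalization, whose factor varies with abundance, moved the log2 difference between the members from -0.42 to -0.21. With the counts of KD2 and KD5 summed, the ratio of the members was 0.746 times that in wild type, with an exact conditional interval from 0.713 to 0.78. In KD2 relative to KD5 it was 0.934 times (0.874 to 0.999). The intervals cover counting error only and leave out variation between libraries. On the log2 scale the members' changes differed by -0.42, against an SE of 0.20 if the fitted values are independent. With 1 wild type library this difference between the members was not tested.

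Highly abundant genes tended to be lower in the RNAi-labelled libraries, and both members share that property. Over all 23089 tested genes the median log2 fold change was 0.02. Among the 38 tested genes with a mean between 1062 and 4247 CPM, from 0.5 to 2 times that of the DRM1 match, it was -0.48, and 23 (60.5%) were called lower and 1 (2.63%) higher. The DRM1 match had the fourth lowest log2 fold change of these 38 and lay 0.74 log2 units below their median. After loess normalization the median of the same 38 genes was 0.22, with 3 called lower and 8 higher, so the split of calls at this level turned with the scaling. The DRM1 match then lay 0.71 below that median. Loess shifts genes of like abundance by nearly the same amount, so this distance is not a separate check.

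Among the 372 tested genes between 301.5 and 1206 CPM, the range around Potri.013G014900, the median log2 fold change was -0.44. Of these, 194 (52.2%) were called lower and 2 (0.538%) higher. Potri.013G014900 was in place 91 of 372 from the lowest, 0.34 log2 units below the median, or in place 100 and 0.30 below after loess normalization, with which 38 of the 372 were called lower and 20 higher. In this range 322 genes lay below wild type in both RNAi-labelled libraries. With TMM scaling a lower call of a gene at this level was thus common, and the part of the abundance trend in the fall of either member was not tested.

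**Figure D3:**
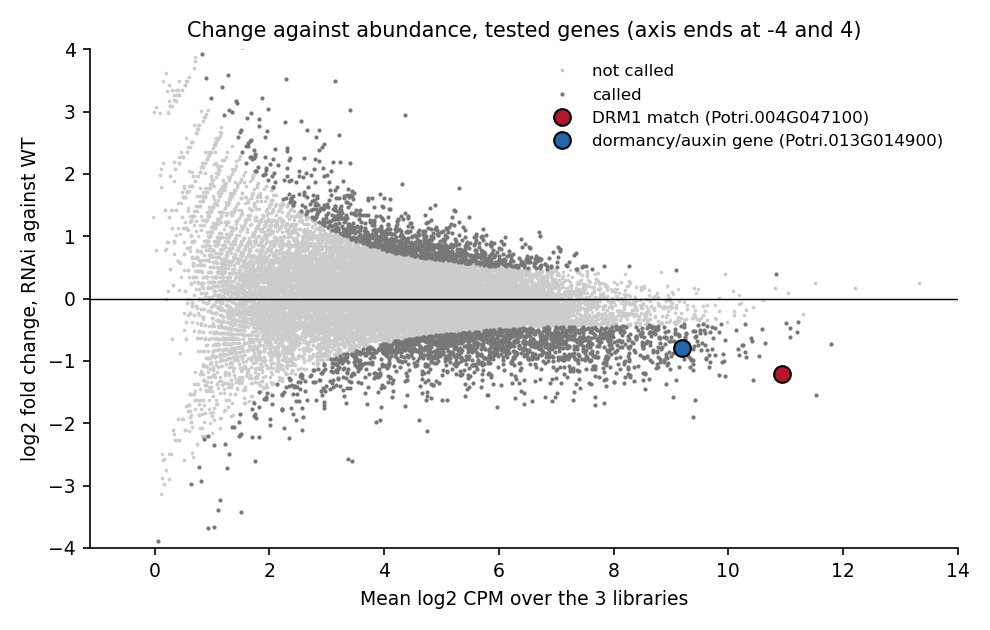
Log2 fold change of the RNAi-labelled libraries against wild type for each tested gene, plotted against its mean log2 CPM over the 3 libraries, with called genes in dark grey and the members as large points. The vertical axis ends at -4 and 4. The DRM1 match (log2 fold change -1.21) and Potri.013G014900 (-0.79) lie at the abundant end, where most called genes lie below 0.

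Of the 20 most abundant genes in wild type, 15 were called lower and 0 higher, and their median change was -0.58 on the log2 scale. Choosing genes by their wild type level favours those that are higher there. Among the 20 genes with the highest mean over the 3 libraries, 12 were called lower and 1 higher, and the median was -0.43. Only 2 genes of either set fell further than the DRM1 match. These were the metallothionein 2A match Potri.006G085200, a metal-binding protein gene, from 6013 CPM in wild type to 2171 in KD2 and 1964 in KD5 (log2 fold change -1.54), and the Rubisco small subunit match Potri.017G114600, part of the carbon-fixing enzyme, from 2531 CPM to 1000 and 1047 CPM (-1.31). By the drop in CPM itself, the DRM1 match lost 1942 CPM, and its change of -1942 CPM was place 3 of all genes. With libraries scaled by size only it was place 2. Potri.013G014900 changed by -352.5 CPM, place 82.

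The genes with the most similar pattern were found among 1357 tested genes that the authors' deposited table describes and whose mean was at least 10 CPM. Likeness was the Euclidean distance between the log2 ratios of KD2 and of KD5 to wild type, so it rests on 3 libraries and on genes already selected for differing between them. Nearest to the DRM1 match were Potri.018G074200 (distance 0.041), described as the EARLY FLOWERING MYB protein EFM, and the glyoxalase I family gene Potri.002G251200 (0.061). Next came Potri.012G097600 (0.063), with a MYND-type zinc finger, the CP12-3 match Potri.005G258400 (0.068) and the ERF-1 match Potri.001G079900 (0.076), an ethylene-responsive transcription factor. Of the 1357 genes, 10 lay within 0.1 of the DRM1 match. The means of Potri.018G074200 and Potri.012G097600 were only 10.7 and 11.3 CPM. No counting interval was computed for the distances, so the order of these genes is not established.

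Around Potri.013G014900 there were 73 genes within 0.1. The order of the nearest ones by distance is likewise not established. The nearest was the SKP2A match Potri.002G074700 (distance 0.007), an F-box protein of the cell cycle. It was followed by the respiratory complex I subunit match Potri.015G054700 (0.016), the NDH-M match Potri.002G077600 (0.017), the small nuclear ribonucleoprotein gene Potri.011G155700 (0.017) and the photosystem II subunit match PSBW, Potri.002G044300 (0.021).

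Genes from the processes in which DRM1 genes are best known were looked up in the authors' deposited table. The entries of that table were selected on the same libraries. Of its 2128 tested entries 59.5% were called lower and 30.8% higher, and their median log2 fold change was -0.76, so the direction of a list within it is not independent evidence. Of the list of bud dormancy regulators, which held SVP, FT, SOC1, BRC1 and others by symbol, the authors' deposited table holds 0 members. Only 847 of its 2151 entries carry a symbol, and it lists only genes with an FDR of at most 0.0499. The 0 therefore does not show that these regulators were unchanged or not expressed.

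The list of sugar starvation and dark-induced genes, matched by name, went both ways. It holds low-energy signalling genes such as KIN10 as well as induced transcripts. Of 6 listed, 5 were tested, 3 of them called higher and 2 lower, and the median change was 1.02 on the log2 scale. The SIP2 match Potri.016G054700 fell from 82.8 CPM in wild type to 43.5 in KD2 and 41.8 in KD5 (log2 fold change -0.96, SE 0.18). In Arabidopsis SIP2 encodes an enzyme that splits raffinose. The other gene called lower, Potri.006G052800, is also a SIP2 match and fell from 98.4 to 53.8 and 71.5 CPM (-0.65, SE 0.18). The KIN10 match Potri.004G115900, a catalytic subunit of the SnRK1 kinase that signals low energy, rose from 20.6 to 44.5 and 39.1 CPM (1.02, SE 0.23). SAG21 (Potri.002G203500), a late embryogenesis abundant gene, rose from 2.28 to 4.41 and 14.6 CPM and so was mainly high in KD5. With loess normalization 1 of the 5 was called lower and 1 higher, and with DESeq2 1 lower and 0 higher.

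Auxin response genes had 6 entries. The calls were 3 lower and 1 higher, and the median change was -0.99 on the log2 scale. IAA14 (Potri.008G161200) and IAA7 (Potri.010G078300) encode Aux/IAA repressors of auxin signalling. IAA14 fell from 12.5 CPM to 3.36 in KD2 and 3.07 in KD5, and IAA7 from 179.5 to 120.7 and 111.9 CPM. The SAUR-like gene Potri.005G096400, of a family of small auxin-induced transcripts, fell from 15.3 to 6.93 and 9.02 CPM. The 1 gene called higher, Potri.005G237200, is of the same family and rose from 0.65 to 3.99 and 4.10 CPM. The SAUR-like genes thus went both ways. With libraries scaled by size only, 1 of the 6 was called lower, with loess normalization also 1, and with DESeq2 0 were called in either direction.

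In pea buds DRM1 transcripts fall as transcripts of growth genes rise. Here, of 171 listed growth genes (ribosomal proteins, histones, cyclins and expansins, matched by name), the calls were 159 lower and 9 higher and the median change was -0.88 on the log2 scale. Their summed level was 66290 CPM in wild type, against 32890 CPM (KD2) and 37460 CPM (KD5). The DRM1 match and most of these genes therefore had the same direction in these libraries. With loess normalization 79 of the 171 were called lower and 4 higher, and the share of all entries of that table is not given here.

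Markers of tissues that a bud sample can hold moved in the same direction, again only as far as that table names them. Of 6 shoot apex and meristem genes 6 were called lower, with a summed level of 381.6 CPM in wild type and 184.8 and 234.9 CPM in KD2 and KD5. Of 20 green leaf genes 18 were called lower and 1 higher, with sums of 10490, 5469 and 5568 CPM. Epidermis and cuticle genes had 8 entries with 6 lower and 1 higher call, and sums of 2844, 1651 and 1416 CPM. With loess normalization 4 of the 6 shoot apex genes, 8 of the 20 green leaf genes and 2 of the 8 epidermis and cuticle genes were called lower. With libraries scaled by size only these counts were 3, 17 and 6, and with DESeq2 1, 16 and 5. The share of all entries of that table called lower under these alternatives is not given here. The xylem list held 1 gene, the CESA7 match Potri.006G181900, at 15.1, 5.25 and 6.97 CPM, and the phloem list held 0. Their part in the fall of the DRM1 match and of Potri.013G014900 was not tested.

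The direction of both members held under every processing tried. Across scalings other than loess, including library size only, with which 4.23% of genes were called lower, the log2 fold change lay between -1.22 and -0.99 for the DRM1 match and between -0.80 and -0.57 for Potri.013G014900, and both were called. Without a filter on low counts the values were -1.23 and -0.80, with adjusted p of 0.08 and 0.088, and edgeR's quasi-likelihood test then called 0 genes in all, with 5051 at an unadjusted p under 0.05. DESeq2, a separate alternative with its own filter on low means, called 595 genes, both members among them (7.89% of genes with an adjusted p were called lower).

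**Figure D4:**
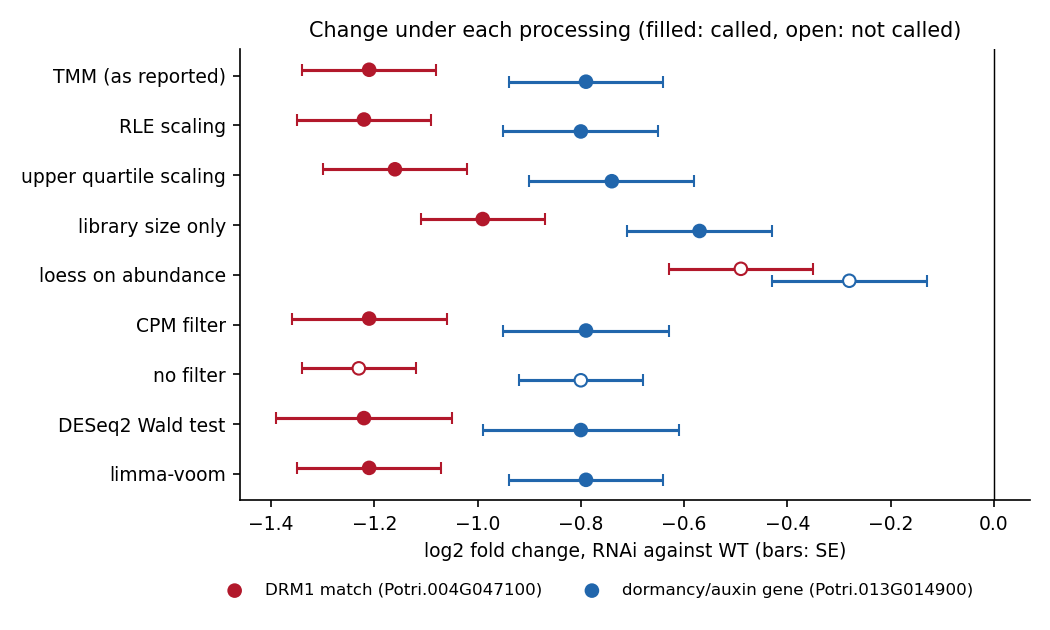
Log2 fold change of each member under each scaling, filter and test, with SE bars. Filled points were called at an adjusted p below 0.05 and open points were not. All points lie below 0, and the open ones are those with loess normalization on abundance (-0.49 and -0.28) and without a filter (-1.23 and -0.80).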

How the data were processed

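Per the labels' protocols, libraries were made with a directional kit from 1 µg of RNA. The authors deposited raw whole-number counts per gene. FastQC, TopHat and edgeR are named in the submitters' processing notes. Not given in the sources used here are versions, genome build, annotation and counter. A second file, the authors' deposited table, holds their log2 fold changes, average log2 CPM, p-values and adjusted p-values (FDR, at most 0.0499), per the file headers. Gene names come from it alone, with a description for 1805 of 2151 entries.

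R 4.3.3 with edgeR 4.0.16 was used. The filterByExpr step (minimum count of 10) left 23089 genes, and TMM factors were 0.904, 1.06 and 1.04 for wild type, KD2 and KD5. The two-sided quasi-likelihood F-test compared 2 RNAi libraries with 1 wild type library, with Benjamini-Hochberg adjustment over all tested genes. It had 1 residual degree of freedom per gene and infinite prior degrees of freedom. Each gene's own spread was thus replaced by the trend fitted over all tested genes, on which the small p-values rest. Genes with an adjusted p below 0.05 are described as called. These p-values reflect only the spread among these samples, which may be technical. The fit was tested on simulated data. The log2 ratios behind likeness used a prior count of 2. Ratios with a counting interval used no prior count.

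Intervals are exact at 95%. A count of 0 has a floor of 3 counts, or between 0.488 and 0.63 CPM. Alternatives were 4 scalings, 2 filters, DESeq2 1.42.0, limma 3.58.1 and a threshold of 0.01. The members and the lists were chosen with earlier results of these data known. Named genes are the members, their neighbours in rank, the 5 nearest in pattern, and from each list at most 3 called genes, those with the smallest adjusted p. The metallothionein and Rubisco genes and SHOOT MERISTEMLESS were named after their values were seen.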

Additional observations from a re-analysis of the deposited data

How the results depend on the processing

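Both members lay below wild type under all 22 combinations of member and alternative, and of the 18 with a test the call was kept in 14. The threshold of 0.01 repeats the main estimates. Every alternative uses the same single wild type library, so these are not independent checks. Loess normalization on abundance moved the log2 fold change of the DRM1 match to -0.49 and that of Potri.013G014900 to -0.28. With it, 0 of these 2 members were called. Without a filter they stood at -1.23 and -0.80 and again 0 were called. Loess also moved the difference between the members from -0.42 to -0.21. The number of called genes was 1253 with loess, 595 with DESeq2, 0 without a filter and 1712 at an adjusted p below 0.01, against 3014. Scaling by size only shifted the tested genes' median log2 fold change from 0.02 to 0.24 and turned the split from 1859 lower and 1155 higher to 976 lower and 3004 higher. With upper quartile scaling it was 1585 lower and 1393 higher. The causes were not tested.

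Leaving out 1 RNAi library left values with no test, which were -1.21 and -1.21 for the DRM1 match, from -0.83 to -0.74 for Potri.013G014900 and from -0.47 to -0.37 for the difference between them. No paired analysis was possible because wild type has 1 library and the labels give no replicate numbers. Ranks by counts per length were not run, since no gene lengths were used here. Depth did not limit the members, which had at least 2292 counts, but the single wild type library limits every comparison.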
